A study of Mus musculus with 8 samples.

Results

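Birc3 and Nfkb2 are NF-kB target genes, and each had 1 peak of open chromatin near an annotated gene start in ATAC-seq data from mouse kidney tubuloids. The members were found as the rows whose gene symbol is Birc3 or Nfkb2, which gave 2 of the 6425 peaks of the deposited table, and the 8 other peaks within 200 kb of them served as local background. The pair was selected on measured values, namely the higher peak values with myoglobin at these genes among the inflammation genes of the same data. Their difference between treatments is therefore given as a description, with no test. In ATAC-seq, the transposase Tn5 cuts and tags accessible DNA, and the number of tagged fragments in a region measures how accessible it was.

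Tubuloids are epithelial cultures grown in Matrigel from cells of the dissociated kidney cortex of wildtype mice. The vehicle group had 4 libraries and the myoglobin group had 4, all from wildtype primary tubuloids labelled as renal tubular epithelial cells, taken 12 hours after vehicle or after myoglobin, the oxygen-binding haem protein of muscle, with 50000 cells per library. The series text gives tubular injury as the purpose of the myoglobin. The series text names 4 mice and no label ties a library to a mouse, so the spread between libraries may be technical. Strain, age and dose are not given in the sources used here.

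NF-kB is a family of transcription factors held in the cytoplasm by inhibitors until a signal frees them. In the canonical arm, receptors for TNF, interleukin-1 or microbial products activate the IKK kinases, which mark the inhibitor IkB for destruction and free RelA and p50. In the non-canonical arm, the kinase NIK accumulates and p100, the product of Nfkb2, is processed to p52, which pairs with RelB. Birc3 encodes c-IAP2, a ubiquitin ligase that works with TRAF2 at TNF receptors to favour survival over caspase-8 activation and that also helps keep NIK low. Both genes are switched on by NF-kB itself, and NF-kB activation in injured tubule cells is a known part of the inflammatory response of the kidney.

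The values are reads per peak that the authors scaled to a common depth and rounded to whole numbers. Totals ran from 124415 to 126782 per library. Whole numbers that are skipped or over-filled at regular steps in a column gave an estimate of its reads, from 130568 to 200519 reads in peaks for the vehicle libraries and from 67645 to 123453 for the myoglobin libraries, whose mean was 0.589 times that of vehicle. The number of reads in peaks thus went with treatment, and its part in the differences below cannot be told apart from that of treatment by the design. Total sequencing depth was not estimated. Of 12 markers of kidney tubule epithelium, Cdh16, Cdh1, Epcam and Pax2 had a peak, with log2 differences between myoglobin and vehicle from -0.30 to 0.00. None of the 8 immune cell, 5 endothelial, or 6 fibroblast and pericyte markers had a peak assigned to it in this table. The table names only 4179 gene symbols, and most of the 12 tubule markers had no peak either. These counts of 0 thus do not show that a cell type was absent. In such bulk libraries, a peak open in fewer cells and a peak less open in every cell cannot be told apart.

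The sequences place both peaks relative to annotated gene starts and, at Nfkb2 only, relative to matches to the NF-kB consensus. Sequences are from RefSeq on GRCm38.p6, the assembly that mm10 names, and 3342 of the 4179 gene symbols of the table had a start window there, running from 250 bases before to 50 bases after an annotated start. The Birc3 peak spans chr9:7872811-7873057 (mm10, 247 bp), inside the Birc3 gene on the minus strand. Its centre lies 252 bp downstream of the start used by the deposited table and 236 bp downstream of the RefSeq start at 7873170, so the peak ends 64 bp short of the start window and shares no base with it. The 250 bases upstream of that start (chr9:7873171-7873420, minus strand) are shown because they are the nearest Birc3 sequence held. The Nfkb2 peak spans chr19:46304489-46304600 (112 bp), on the plus strand of Nfkb2. Its centre lies 225 bp downstream of the start in the deposited table and, by RefSeq, upstream of a start at 46304737. All 112 bases fall in that start's window, so the peak's own sequence is shown, followed by the 250 bases upstream of the start (chr19:46304487-46304736) and a stretch near a further RefSeq start (chr19:46305685-46305734). Capitals mark matches to the NF-kB consensus or to its spelled form GGGNNTTTCC on either strand.
Birc3, upstream of its start: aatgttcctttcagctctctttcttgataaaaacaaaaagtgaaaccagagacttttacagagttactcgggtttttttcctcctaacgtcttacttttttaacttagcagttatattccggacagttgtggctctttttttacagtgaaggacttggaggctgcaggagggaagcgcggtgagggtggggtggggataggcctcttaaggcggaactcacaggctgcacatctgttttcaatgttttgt
Nfkb2, the peak: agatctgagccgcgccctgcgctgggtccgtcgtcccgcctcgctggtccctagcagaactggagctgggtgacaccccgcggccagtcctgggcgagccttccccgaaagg
Nfkb2, upstream of the start at 46304737: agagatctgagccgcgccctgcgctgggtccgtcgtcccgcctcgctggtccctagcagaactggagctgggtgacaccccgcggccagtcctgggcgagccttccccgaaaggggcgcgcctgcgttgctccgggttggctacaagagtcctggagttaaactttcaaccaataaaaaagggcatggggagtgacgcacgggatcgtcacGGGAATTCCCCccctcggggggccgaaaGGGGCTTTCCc
Nfkb2, near the further start: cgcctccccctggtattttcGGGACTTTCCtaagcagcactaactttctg

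The Nfkb2 sequence held NF-kB matches beside its peak and none in it. Upstream of the start at 46304737, the palindromic GGGAATTCCC began 39 bases and GGGGCTTTCC 11 bases before the start, and a further match on the other strand overlapped the palindrome by all but 1 base. The palindrome starts 98 bp past the end of the peak. The match GGGACTTTCC near the further start begins 1105 bp past it, and 1 more match, on the other strand, lies 236 bases upstream of that further start. The Birc3 window held no match to either pattern, which says only that these letters are not in those 300 bases, and the bases under the Birc3 peak itself were not searched. Birc2 had 2 start windows and no match in either. Over all 32851 windows of 300 bases, 4.5% held the consensus and 1.63% held GGGNNTTTCC, whose matches here were also matches to the consensus. The 2 member windows also differed in composition, with 43.0% G and C and 7 CpG dinucleotides at Birc3 against 65.7% and 25 at Nfkb2, beside medians of 52.7% and 7 over all windows. The Nfkb2 peak lies within the RefSeq span of the long non-coding RNA gene 4833438C02Rik (46303585 to 46305629) as well as that of Nfkb2. Whether either peak is exonic or intronic was not analysed here.

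In vehicle tubuloids both sites were open at an ordinary level. Per 100 bp of peak, the vehicle level was 8.10 at Birc3 and 9.82 at Nfkb2, against a median of 7.87 over the 4162 peaks within 1000 bp of a start. By that measure 53.9% of those peaks were below Birc3 and 77.0% below Nfkb2. The Nfkb2 peak was narrow, with only 6.2% of those peaks narrower, so its raw value was low. By the starts of the deposited table, the 2 peaks also shared a position that the choice of genes did not use. Both centres lay over 200 bp downstream of the assigned start, as did 12.0% of the 4162 peaks (500). The median distance in either direction was 88 bp. The 200 bp limit lies just under the members' own distances of 252 and 225 bp, so the share is only a description. By RefSeq, the Nfkb2 centre lies upstream of a start at 46304737, so the likeness depends on the annotation.

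At Birc3, the values were 22, 23, 23 and 12 in vehicle replicates 1 to 4 and 35, 29, 30 and 32 in myoglobin replicates 1 to 4. All 4 myoglobin libraries were above all 4 vehicle libraries, by 6 units at the closest, and vehicle replicate 4 was far below the other 3. The means were 20 ± 5.35 in vehicle and 31.5 ± 2.65 in myoglobin (SD, n = 4 each), a ratio of 1.58, and the log2 difference on the log2(value + 1) scale was 0.67 ± 0.21 (SE). Without vehicle replicate 4 the vehicle mean was 22.7 ± 0.577 (SD, n = 3), the ratio of means 1.39 and the log2 difference 0.45 ± 0.22 (SE). The groups did not overlap with or without that library, but leaving out the lowest vehicle value could not have made them overlap.

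Behind these values stood an estimated 106 reads in the 4 vehicle libraries together and 101 in the 4 myoglobin libraries, with 16 to 37 reads per vehicle library and 16 to 35 per myoglobin library. The estimated reads were thus nearly equal before scaling, and the difference stands relative to the rest of each library. Read sampling alone would give a coefficient of variation of 19.6% in vehicle and 20.8% in myoglobin. The observed ones were 26.8% and 8.4%, so the myoglobin libraries lay closer to each other than the sampling figure.

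At Nfkb2, the values were 12, 11, 9 and 12 in vehicle replicates 1 to 4 and 17, 18, 15 and 15 in myoglobin replicates 1 to 4. Again no myoglobin library reached down to a vehicle library, and the gap between the groups was 3 units. The means were 11 ± 1.41 and 16.3 ± 1.5 (SD, n = 4 each), a ratio of 1.48, and the log2 difference was 0.53 ± 0.28 (SE). An estimated 59 vehicle and 51 myoglobin reads lay behind them, from 8 to 18 per library, for which sampling alone would give coefficients of variation of 26.4% and 29.0%. The observed 12.9% and 9.2% were smaller than that in both groups. At both members, choice on the contrast between groups can favour a small spread within them, so the SDs may understate it.

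**Figure D1:**
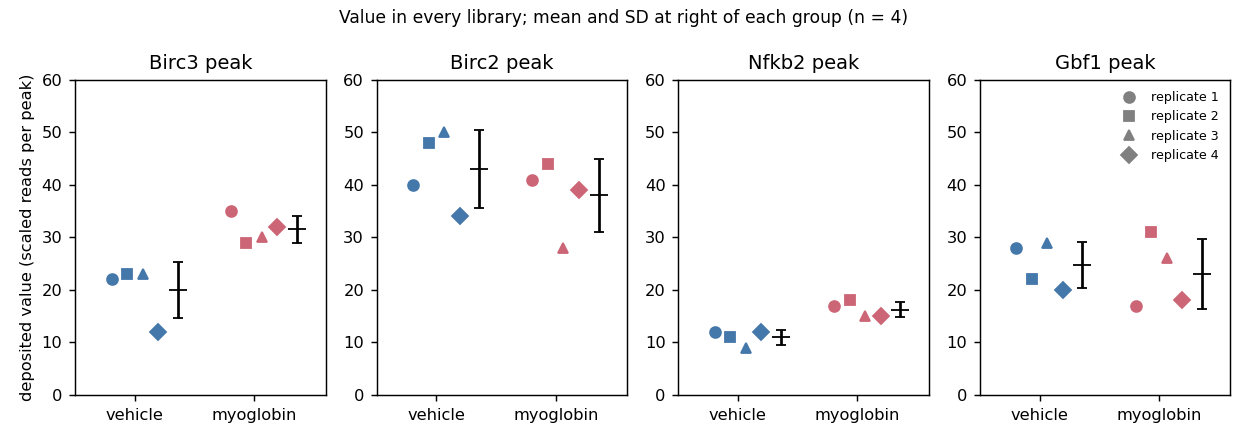
Deposited value (scaled reads per peak, vertical axis from 0) in every library at the Birc3 and Nfkb2 peaks and at one neighbour of each, Birc2 and Gbf1; the marker shape gives the replicate number, which is not known to pair libraries, and bars give mean and SD. At Birc3 the vehicle values of 12 to 23 lie under the myoglobin values of 29 to 35, at Nfkb2 9 to 12 lie under 15 to 18, and the groups overlap at Birc2 and Gbf1.

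Non-overlapping groups in this direction were found at 93 of the 6425 peaks (1.45%) and in the opposite direction at 102 (1.59%). Both members are among the 93, and because the pair was chosen on this contrast nothing is read from that count. In the limma fit over all peaks, 13 (0.202%) were called higher with myoglobin and 3 (0.0467%) lower at an adjusted p under 0.05, and neither member was among them. Across the 8 libraries, the log2 values of Birc3 and Nfkb2 had a Pearson correlation of 0.574, given as a description. Both peaks were chosen for higher values with myoglobin, which by itself gives a positive correlation across the groups. The libraries that were low within vehicle differed, with vehicle replicate 4 lowest at Birc3 and vehicle replicate 3 lowest at Nfkb2.

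No peak near the members passed the test. None of the 8 neighbours was called (limma, adjusted p from 0.740 to 0.979), none had an unadjusted p under 0.05, and groups overlapped at all 8. Over all 6425 peaks, 488 had such a p and 195 had groups that did not overlap, shares that leave under 1 in 8, so these counts of 0 set the neighbours apart from nothing. Their median log2 difference was -0.12, against -0.02 over all peaks, and 2 of 8 lay above 0, against 3034 of 6425.

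The nearest neighbour with a gene name at Birc3 is Birc2, which encodes the closely related c-IAP1 and lies in tandem with Birc3 on the same strand, with its peak (chr9:7836864-7837399) 35.4 kb away. Birc2 values were 40, 48, 50 and 34 in vehicle and 41, 44, 28 and 39 in myoglobin. The means were 43 ± 7.39 and 38 ± 6.98 (SD, n = 4 each), with a log2 difference of -0.18 ± 0.17 (SE; limma adjusted p = 0.880), so the spread within the groups exceeded the difference. Its vehicle level per 100 bp, 8.02, was close to that of Birc3.

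Dividing Birc3 by Birc2 within each library removes the scaling of the library. The ratio was 0.55, 0.479, 0.46 and 0.353 in vehicle and 0.854, 0.659, 1.071 and 0.821 in myoglobin. Every myoglobin ratio was above every vehicle ratio, and the mean ratio was 1.85 times as high. The ratio carries the Birc3 difference on which the pair was chosen, so it is a description and no separate evidence. Vehicle replicate 4 had the lowest vehicle value at both genes and still the lowest ratio. The highest ratio, in myoglobin replicate 3, came with the lowest Birc2 value of the 8 libraries, 28.

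The other peaks near Birc3 were at Tmem123, a membrane protein gene, and at 2 places with no gene assigned in the table. Tmem123, 108.6 kb away, had values of 36, 41, 34 and 39 in vehicle and 30, 34, 34 and 41 in myoglobin (log2 difference -0.11). The unassigned peaks, 29.3 and 41.5 kb to the other side, were low, with means of 8.25 in both groups for the nearer and of 7 against 7.75 for the farther. Birc3 relative to the sum of its 4 neighbours was 0.208 ± 0.053 in vehicle and 0.358 ± 0.041 in myoglobin (SD, n = 4 each), without overlap. That ratio too carries the chosen difference of Birc3. The next peaks on the chromosome, beyond the 200 kb limit, were 695.7 kb and 5373.8 kb away. Within the limit Birc3 had 4 neighbours, as many as Nfkb2.

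The 4 neighbours of Nfkb2 all had a gene assigned. Gbf1, a guanine nucleotide exchange factor of the Golgi, stood at 28, 22, 29 and 20 in vehicle and 17, 31, 26 and 18 in myoglobin. Fbxl15, an F-box gene whose peak is the nearest at 23.9 kb, stood at 12 ± 4.24 and 10.3 ± 0.957 (SD, n = 4 each). Both overlapped widely between treatments.

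On the far side, Actr1a and Sufu lie head to head, with peaks 90.6 and 92.2 kb from that of Nfkb2. Actr1a, a dynactin subunit gene, had means of 17 and 18.8. Sufu, an inhibitor of Hedgehog signalling, had 16.8 ± 3.20 in vehicle and 12 ± 2.0 in myoglobin (SD, n = 4 each), the lowest log2 difference among the 8 neighbours at -0.44 ± 0.28 (SE; limma adjusted p = 0.740). Nfkb2 relative to the sum of its 4 neighbours was 0.159 ± 0.035 in vehicle and 0.255 ± 0.022 in myoglobin, without overlap. Here the ratio carries the chosen difference of Nfkb2. Just beyond 200 kb lay the peaks of Nolc1 at 228.5 kb (log2 difference -0.16) and Sfxn2 at 268.5 kb (-0.25). Mir146b, a microRNA gene known to be induced by NF-kB, lies between Fbxl15 and Actr1a and had no peak of its own among these rows.

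**Figure D2:**
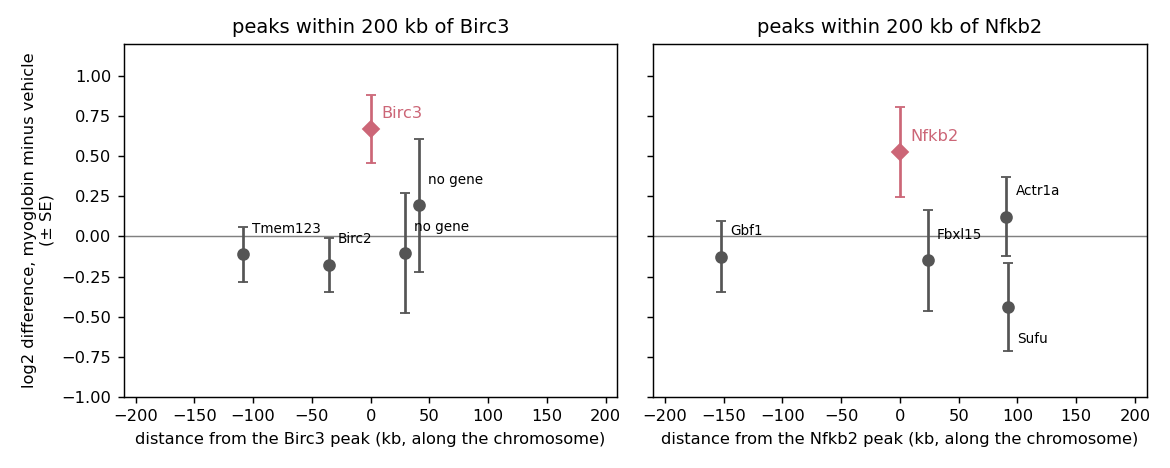
Log2 difference between myoglobin and vehicle (± SE, vertical axis) against distance from the member peak in kb (horizontal axis) for each peak within 200 kb of Birc3 (left) and Nfkb2 (right); diamonds are the members. The members stand at 0.67 and 0.53, while the 8 neighbours lie between -0.44 and 0.19.

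No peak at another gene of the pathway passed the test. The lists of NF-kB pathway genes held 180 genes besides the members, of which 65 had 70 peaks in the table. None of the 70 was called in either direction, 4 had an unadjusted limma p under 0.05, and 23 lay above 0. Over all 6425 peaks, 488 had such a p and 3034 lay above 0, so the share of low p-values in the lists was near the general one. Their median log2 difference was -0.09, against -0.02 over all peaks. All myoglobin values were above those of vehicle at 1 peak and below at 1, where the shares over all peaks were 1.45% and 1.59%. Counts below are of limma calls over all 6425 peaks at an adjusted p under 0.05. Of all peaks, 0.202% were called higher and 0.0467% lower. At such shares a count of 0 in 70 peaks, or in a shorter list, says nothing about the pathway.

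Among the transcription factor subunits, Relb, the partner of p52, was the only one besides Nfkb2 with a peak, and Rela, Rel and Nfkb1 had none. Of the 180 listed genes only 65 had a peak, so the lack of one, here and below, is not read as closed chromatin. The Relb peak stood at 44, 58, 59 and 48 in vehicle and 40, 46, 41 and 70 in myoglobin. Myoglobin replicate 4 was the highest of all 8, replicates 1 and 3 were the lowest, and the groups overlapped, giving a log2 difference of -0.11 ± 0.16 (SE; adjusted p = 0.925).

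Inhibitors and regulators had 4 peaks, none called, with log2 differences from -0.09 to 0.22. The classical inhibitor gene Nfkbia and the feedback gene Tnfaip3 had no peak. Nfkbil1, an IkB-like gene, was at 9.75 ± 3.10 and 11.3 ± 2.06, and Nkiras1 and Nkiras2, small GTPases that restrain NF-kB activation, were at log2 differences of -0.09 each. Deubiquitinases and feedback genes had 3 peaks, none called. Of these, Cyld, which removes the ubiquitin chains on which the pathway signals, was at 34.8 ± 8.06 and 32 ± 6.68 (SD, n = 4 each). Usp18 was at -0.13 and Tnip2, a partner of the A20 protein, at 0.09.

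The kinases had 10 peaks, of which 3 lay above 0 and none was called. Map3k14, the gene of NIK, had means of 33 ± 4.32 for vehicle and 30.5 ± 6.40 for myoglobin (SD, n = 4 each), with a limma adjusted p of 0.936 at a log2 difference of -0.12. Chuk, the IKK-alpha gene, had no peak. Map3k7, the gene of the IKK-activating kinase TAK1, was the only pathway peak with all myoglobin libraries above vehicle, at 11, 7, 11 and 10 against 13, 12, 13 and 13. Its groups were 1 unit apart and its log2 difference was 0.37 ± 0.31 (SE; adjusted p = 0.839). Tab3, which encodes a TAK1-binding adaptor, pointed the other way, at 14.3 ± 3.10 and 8.75 ± 2.63 (log2 difference -0.66, adjusted p = 0.620). Ripk2, the kinase of NOD receptors, was at -0.15.

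Receptors and adaptors had 13 peaks, of which 3 lay above 0 and none was called, and their median was -0.18. Traf2, which recruits the c-IAP proteins, was at 26.8 ± 8.18 and 22.8 ± 2.50 (SD, n = 4 each), while Traf3 had no peak. Sharpin, a subunit of the linear ubiquitin chain assembly complex, had all vehicle values (42, 40, 48 and 42) above all myoglobin values (36, 35, 37 and 28), with a log2 difference of -0.33 ± 0.17 (SE; adjusted p = 0.649). Bcl10 was at -0.35. Tlr3, the receptor of double-stranded RNA, had values of 6 or less in every library and 0 in myoglobin replicates 1 and 3.

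In the IAP family, besides Birc3, peaks were present at Birc2 and at Birc6, a giant IAP with a ubiquitin-conjugating domain. Birc6 was at 75.8 ± 6.24 in vehicle and 77.3 ± 19.4 in myoglobin, a log2 difference of 0.00 ± 0.13 (SE). Caspases and death regulators had 6 peaks with a median of -0.01 and none called. Bcl2l1, which encodes the survival protein BCL-XL and is another NF-kB target, was at 0.25 and Casp2 at -0.08.

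Genes that tag or cut NF-kB precursors and inhibitors through ubiquitin had 11 peaks, of which 2 lay above 0, with a median of -0.13 and none called. Fbxw7, a ubiquitin ligase subunit with p100 among its substrates, was at 31.8 ± 6.29 and 23.5 ± 3.79 (log2 difference -0.41, adjusted p = 0.633). Gsk3b, a kinase that marks p100 for Fbxw7, was at -0.13.

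Among the target genes besides the members, 21 of 66 had 25 peaks, of which 11 lay above 0 and none was called, with a median of -0.05. The largest differences were at Zc3h12a, which encodes Regnase-1, an RNase that destroys inflammatory messenger RNAs. Its peak at chr4:125124728-125124843 had values of 1, 7, 10 and 8 in vehicle and 9, 14, 17 and 11 in myoglobin (log2 difference 1.09 ± 0.39 SE, adjusted p = 0.436). The groups overlapped by 1 library. The adjoining peak at chr4:125124542-125124668 had 5, 6, 7 and 8 against 17, 12, 17 and 7 (0.87 ± 0.35 SE, adjusted p = 0.556), and here myoglobin replicate 4 lay within the vehicle range. The gene's other peak had a log2 difference of -0.20. Trib1, a pseudokinase gene, was at 89.3 ± 6.40 and 77 ± 9.90 (-0.22).

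**Figure D3:**
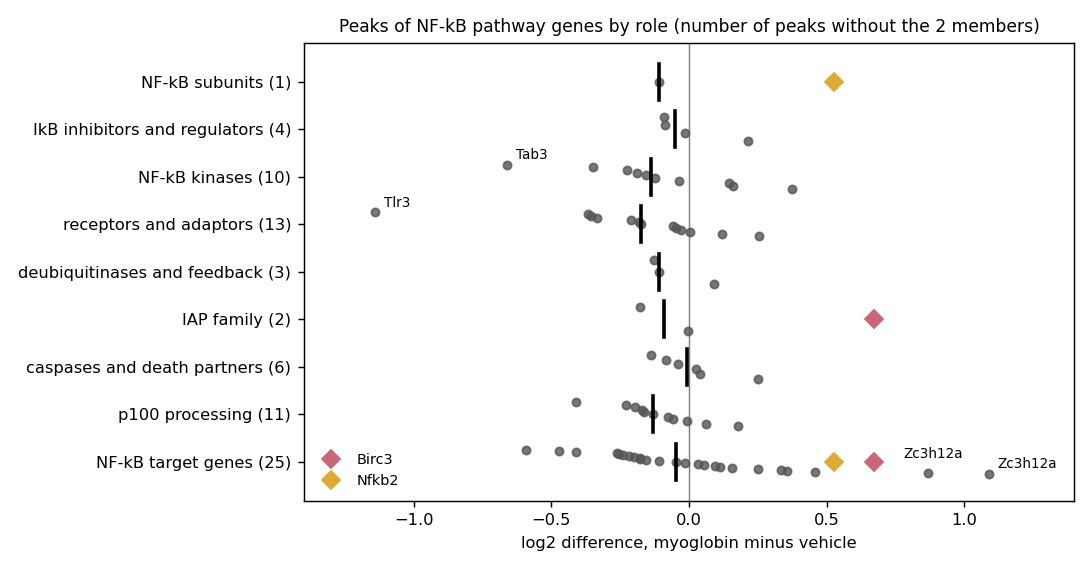
Log2 difference between myoglobin and vehicle (horizontal axis) for every peak of the NF-kB pathway lists, 1 row per role; circles are peaks, spread vertically only to separate them, black bars are list medians without the members, and diamonds are Birc3 and Nfkb2. List medians lie between -0.18 and -0.01 and the members at 0.67 and 0.53, where of the other peaks only the 2 of Zc3h12a lie further to the right than either.

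The peaks whose values over the 8 libraries were most like those of the members were sought among 1845 peaks with a gene symbol and a mean value of at least 20. The measure was the Pearson correlation of log2 values, given as a description over 8 points that differ together in estimated reads in peaks and treatment. For Birc3 the highest were Kiaa0100 (0.955), Selenoi (0.940), Pi4k2a (0.916), Ogfod2 (0.882) and Cks2 (0.855). Each of these 5 had its lowest value of all 8 libraries in vehicle replicate 4, as Birc3 did, which choice by correlation with Birc3 favours. Kiaa0100 stood at 16, 21, 17 and 10 in vehicle and 33, 24, 22 and 31 in myoglobin. For Nfkb2 the highest were Zbtb18 (0.940), Papss1 (0.920), Rab32 (0.905), Zbed4 (0.903) and Smim14 (0.884). Zbtb18, a transcriptional repressor gene with 2 peaks of which this is the taller, stood at 26, 26, 16 and 21 against 36, 37, 30 and 31. None of these 10 peaks was called, and none belongs to the NF-kB lists. Of all 6425 peaks, 0.202% were called higher and 0.0467% lower, and the lists held 70. Neither count of 0 thus sets the 10 peaks apart.

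The member differences kept their direction under every alternative that was run. The log2 difference ran from 0.57 to 0.70 at Birc3 and from 0.41 to 0.56 at Nfkb2 over other scalings, pseudocounts, filters and variance models. With 1 library left out it ran from 0.45 (without vehicle replicate 4) to 0.75 at Birc3, and from 0.44 (without vehicle replicate 3) to 0.57 at Nfkb2. Since the groups do not overlap at either member, leaving out a library could not turn the direction, and this is no sign of stability.

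**Figure D4:**
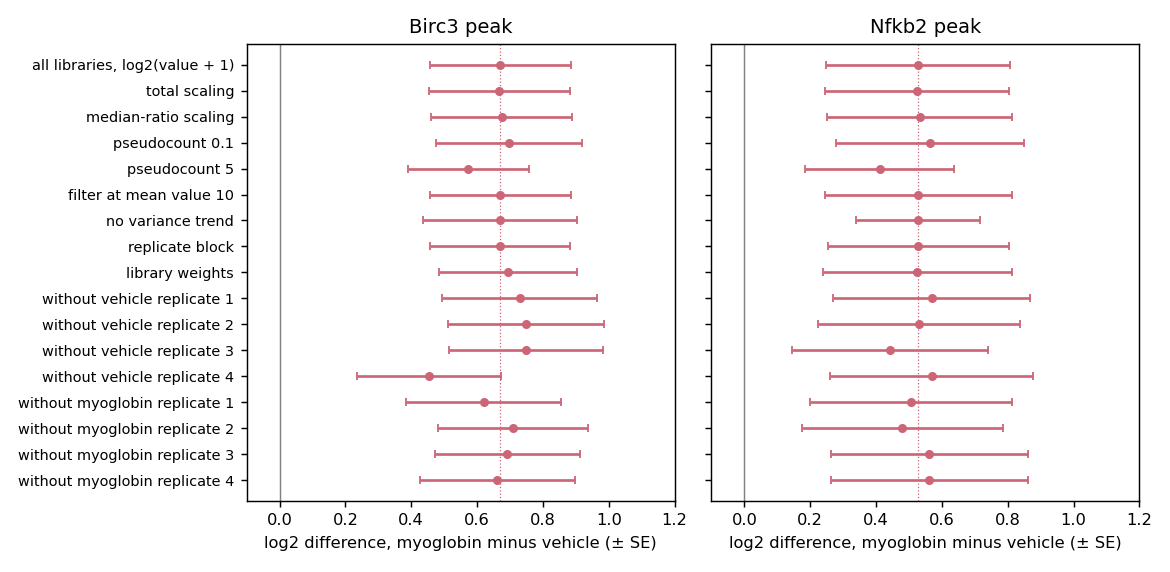
Log2 difference between myoglobin and vehicle (± SE, horizontal axis) at Birc3 and Nfkb2 under each setting (vertical axis), from the fit with all libraries at the top to fits with 1 library left out at the bottom; the dotted line marks the value with all libraries. Birc3 moves most without vehicle replicate 4, to 0.45, and Nfkb2 most with a pseudocount of 5, to 0.41.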

How the data were processed

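The deposited table holds 1 row per peak and 1 column per library for 4 vehicle and 4 myoglobin libraries. Its values are a score: reads per peak scaled by the authors and rounded to whole numbers, as the deposited columns show by whole numbers skipped at regular steps (factor above 1) or over-filled at regular steps (factor below 1). Per the submitters' processing notes, the tools were featureCounts, STAR 2.7.10a, DESeq2 1.36.0, Trimmomatic 0.39 and Picard 3.0.0, on build mm10. The sources used here do not give their roles, the peak caller, duplicate handling or any Tn5 shift. A scaling factor per library was estimated by maximum likelihood from the steps and tested on simulated data; value divided by factor gave estimated reads, uncertain by about 1 read.

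limma 3.58.1 (R 4.3.3) was fitted to log2(value + 1) over all 6425 peaks, with treatment as the only term, a variance trend and Benjamini-Hochberg adjustment at a threshold of 0.05. limma's prior had 78.5 degrees of freedom, beside 6 residual ones, so the spread at 1 peak is mostly that of peaks of like height. Fold changes on this scale understate those of low peaks. Count models were not used because the values are not counts.

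The members and all gene lists were chosen with earlier results of these data known. Peaks were named by a rule: the members, every peak within 200 kb (between peak edges), the 3 peaks of smallest p in each pathway list, 11 genes always given (Birc2, Rela, Relb, Rel, Nfkb1, Nfkbia, Tnfaip3, Traf2, Traf3, Map3k14 and Chuk), and the 5 peaks most correlated with each member. Of the peaks so named, 2 are not reported here. The other Zc3h12a peak, the peaks just beyond 200 kb and Mir146b were added after values were seen. Sequences and start windows are from RefSeq (GRCm38.p6), searched on both strands.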

Additional observations from a re-analysis of the deposited data

Results flagged for a closer look

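Of 90 sets of 4 libraries at the peaks named, 10 held a library that Dixon's test on the gap to its nearest neighbour set apart, where chance gives about 1 in 20 sets, or 4.5; small whole numbers with ties are set apart more easily. The one at a member was Birc3, with 12 in vehicle replicate 4 beside 22, 23 and 23. Birc3 was chosen for higher values with myoglobin, and a low vehicle value enlarges that difference. The choice thus favours such a value, and nothing is read from this test at Birc3. Vehicle replicate 4 also stood apart at Ogfod2 (20 beside 27 in each of the other 3). Ogfod2 was named for its correlation with Birc3, which favours a low value in that library, so it is no independent second instance. It is still counted among the 10. The others were Sufu in vehicle replicate 2 (12) and in myoglobin replicate 1 (15 beside 11 in each), Ripk2 in vehicle replicate 3 (82), Map3k7 in myoglobin replicate 2 (12 beside 13 in each), Tnip2 in myoglobin replicate 3 (15 beside 11 in each), Birc6 in vehicle replicate 1 (85), Gsk3b in myoglobin replicate 3 (73) and Map3k14 in myoglobin replicate 4 (40).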

How the results depend on the processing

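At Birc3 and Nfkb2 all 16 alternatives kept the direction. No other NF-kB pathway peak and no peak within 200 kb was called under any of them, which means little with so few calls over all peaks. Of the 33 uncalled peaks named as neighbours or pathway genes (27 with a filter at a mean value of 10), at most 3 changed sign in any one alternative. The peaks named for their correlation with a member were not part of this count. The counts over all peaks, 13 higher and 3 lower, depended on the setting: 8 and 1 with a pseudocount of 0.1, 7 and 0 without the variance trend, 5 lower with a pseudocount of 5, and 5 lower with library weights. With 1 library left out, 7 to 13 were higher and 0 to 4 lower, the fewest without vehicle replicate 1 (7 and 0), with 8 and 1 without vehicle replicate 2, 0 lower without vehicle replicate 3, and 7 and 1 without vehicle replicate 4. The cause was not tested.

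With the replicate block, 9 were higher and 1 lower, and the members stood at 0.67 and 0.53 as before. Same-numbered libraries did not deviate together (correlations of -0.01 to 0.03 across peaks), and 3 of 8 libraries correlated best with their own number. Read sampling at low values can hide such a likeness, so this does not show that the libraries were unpaired. The numbers were not taken as pairs because no label ties a library to a mouse. Low read numbers limit the members: 8 to 37 estimated reads stood behind each value.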

Other observations

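Promoters with an NF-kB match, taken by sequence alone, were looked at across the table. Of the genes with a peak within 1000 bp of a start and a RefSeq window, 5.0% (155 of 3093) held the consensus in a start window. Leaving out the members, their 160 peaks had a median log2 difference of 0.04 (quartiles -0.17 and 0.23), against -0.01 (-0.18 and 0.18) at the 3026 peaks without a match. None of the 160 was called, against 2 of the 3026, a share at which 0 of 160 says nothing. All myoglobin values were above vehicle at 1 of the 160 (0.62%), against 1.62% of the others. For GGGNNTTTCC the medians were 0.01 over 51 peaks and 0.00 over 3135, with 2 of the 51 (3.92%) and 1.53% of the others above vehicle in every library. These are descriptions, since a match is not shown to be a site in these cells.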
